A study of Mus musculus with 4 samples.

Results

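The regions described here are the peaks of a PML proximity map of mouse embryonic stem cells that lie at divergent pairs of protein-coding genes. A divergent pair was 2 autosomal genes on opposite strands, pointing away from each other, with annotated 5′ ends at most 1000 bp apart. A peak was a member when it overlapped, by at least 1 bp, the span from 500 bp before to 500 bp after the interval between those ends. Genes named Hist1 to Hist4 were left out. The rule used gene positions and no property of a peak other than its place. It gave 720 pairs of 1420 genes, 6.85% of the 20740 autosomal protein-coding genes considered, and 669 member peaks of 26268 autosomal peaks (2.55%) and of 26496 in all. The pairs fall at 700 separate loci, because 20 genes belong to 2 pairs each, and 20 member peaks lie in the spans of 2 or more pairs. Hdlbp/Sept2, for example, is listed as 2 pairs because 2 gene records carry the symbol Sept2.

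The map was made by ALaP-seq, in which the peroxidase APEX is fused to PML, the protein that organises PML nuclear bodies, and attaches biotin to chromatin close to it when hydrogen peroxide is added. All 4 samples were E14 mouse embryonic stem cells with an APEX-PML knock-in, cultured with leukemia inhibitory factor, CHIR99021 (a GSK3 inhibitor) and PD0325901 (a MEK inhibitor). There were 2 samples with hydrogen peroxide and 2 without it, the latter carrying the same fusion. The list used here merges replicates and gives only the chromosome, start and end of each peak. It therefore holds no depth, no height and no spread between replicates, and no treated sample could be set against a control. Intervals and p-values below count pairs, genes or peaks as units and describe this list. Genes close to each other are not independent units.

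Where 2 genes start back to back, the stretch between their starts serves as a promoter for both. Such bidirectional promoters in mammals are mostly rich in CpG, mostly lack a TATA box, and often drive housekeeping genes, with DNA repair genes as known examples. Binding sites of NF-Y (the CCAAT box), of ETS factors such as GABPA, and of SP factors (the GC box) are common in promoters of this kind.

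The sequences between the 5′ ends of 10 pairs are shown first, because they are the shared promoter DNA on which the results turn. Each runs 5′ to 3′ on the plus strand of GRCm38 (mm10), from the base after the 5′ end of the minus-strand gene to the base before that of the plus-strand gene. None of these stretches overlaps an annotated exon. Capitals mark matches, on either strand, to any of 13 short motifs spelled out further below. The first 4 pairs are among those with the widest peaks, which cover the whole stretch in each.
Ddx5/Cep95, chr11:106789186-106789251: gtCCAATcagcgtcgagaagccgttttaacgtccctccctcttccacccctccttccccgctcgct
Pusl1/Acap3, chr4:155891782-155891821: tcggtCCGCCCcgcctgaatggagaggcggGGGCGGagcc
Cdca2/Kctd9, chr14:67715842-67715936: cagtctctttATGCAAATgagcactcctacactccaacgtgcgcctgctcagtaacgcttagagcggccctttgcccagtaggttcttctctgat
Cenpp/Nol8, chr13:49652786-49653077: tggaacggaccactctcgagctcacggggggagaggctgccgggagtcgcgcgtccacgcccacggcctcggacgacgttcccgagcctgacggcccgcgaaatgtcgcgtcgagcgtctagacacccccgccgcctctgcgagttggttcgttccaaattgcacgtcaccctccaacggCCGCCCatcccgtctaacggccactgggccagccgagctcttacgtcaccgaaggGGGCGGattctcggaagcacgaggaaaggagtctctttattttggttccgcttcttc
The next 4 come from the gene lists and hold 3 or 4 kinds of motif each. They too are covered by a peak from end to end.
Trmt6/Mcm8, chr2:132816056-132816140: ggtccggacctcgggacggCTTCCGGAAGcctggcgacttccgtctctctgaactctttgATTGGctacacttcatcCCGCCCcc
Kif24/Nudt2, chr4:41464888-41465150: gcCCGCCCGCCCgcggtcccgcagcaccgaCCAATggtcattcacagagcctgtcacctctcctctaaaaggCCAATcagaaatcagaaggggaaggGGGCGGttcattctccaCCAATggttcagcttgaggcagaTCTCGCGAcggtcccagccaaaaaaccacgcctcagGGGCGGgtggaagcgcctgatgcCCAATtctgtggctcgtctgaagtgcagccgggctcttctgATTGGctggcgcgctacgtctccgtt
Arl3/Sfxn2, chr19:46573199-46573364: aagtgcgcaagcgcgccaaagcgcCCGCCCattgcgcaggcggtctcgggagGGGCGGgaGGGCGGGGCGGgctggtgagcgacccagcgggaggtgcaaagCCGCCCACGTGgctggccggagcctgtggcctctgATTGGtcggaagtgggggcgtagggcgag
Klc4/Mrpl2, chr17:46646023-46646228: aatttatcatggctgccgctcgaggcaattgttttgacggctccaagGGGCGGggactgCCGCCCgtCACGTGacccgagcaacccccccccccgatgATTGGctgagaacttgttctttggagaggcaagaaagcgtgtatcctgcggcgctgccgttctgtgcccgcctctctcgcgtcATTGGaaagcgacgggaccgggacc
The last 2 are often-cited divergent pairs whose interval was covered in part or not at all.
Brca1/Nbr1, chr11:101551956-101552148: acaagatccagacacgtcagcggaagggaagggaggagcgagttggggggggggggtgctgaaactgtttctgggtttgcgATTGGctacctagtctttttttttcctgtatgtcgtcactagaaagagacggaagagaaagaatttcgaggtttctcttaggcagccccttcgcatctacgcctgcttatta
Mrps12/Sars2, chr7:28741821-28741991: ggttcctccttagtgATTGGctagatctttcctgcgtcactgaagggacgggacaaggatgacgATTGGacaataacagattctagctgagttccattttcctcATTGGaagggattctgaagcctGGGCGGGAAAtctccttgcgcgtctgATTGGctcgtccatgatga

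The GC box, written CCGCCC when it lies on the other strand, and the CCAAT box, then written ATTGG, were each found in 7 of these 10 stretches. Within each group the stretches with the most motifs were chosen for printing, so such counts are favoured by the choice and are not typical of pairs. Kif24/Nudt2, between a kinesin gene and a nucleotide hydrolase gene, holds 5 CCAAT boxes, 4 GC boxes and 1 BANP element in 263 bp. The 166 bp between Arl3, a small GTPase of cilia, and Sfxn2, a mitochondrial carrier, hold 5 GC boxes, 1 E box and 1 CCAAT box and are 73.5% GC. The 85 bp between Trmt6, a tRNA methyltransferase subunit, and Mcm8, a helicase used in recombination, hold overlapping ETS cores on both strands that also read as a heat shock element. The interval of Cdca2 and Kctd9 holds an octamer and no other motif of the 13. The interval of Mrps12 (a mitochondrial ribosomal protein) and Sars2 (the mitochondrial seryl-tRNA synthetase) holds 4 CCAAT boxes, yet none of its 171 bases lay in a peak.

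Most divergent pairs carried a peak. Of the 720 pairs, 562 had at least 1 member (78.1%, exact Clopper-Pearson 95% interval 74.9 to 81.0). Among them were Atm/Npat, the kinase of the DNA damage response beside a histone gene activator, with 1 peak of 723 bp, and Mcm4/Prkdc, a subunit of the replicative helicase beside the catalytic subunit of DNA-PK, with 1 peak of 517 bp. Col4a4/Col4a3, genes of basement membrane collagen chains, had none. One member was found at 447 pairs, 2 at 103, 3 at 12 and none at 158. Counting loci in place of pairs gave 547 of 700 (78.1%).

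To compare pairs with other promoters over equal lengths, each pair was reduced to the 1000 bp centred on the midpoint between its 5′ ends, and every other gene to the 1000 bp centred on its own 5′ end. Of the pairs, 559 of 720 had a peak in this window (77.6%, 74.4 to 80.6), against 6745 of 19320 other promoters (34.9%, 34.2 to 35.6). Over all 20040 units together the share was 36.4%. In a logistic regression across all units, with GC content, CpG observed/expected ratio and their squares as covariates, the log2 odds of a peak were 1.29 higher at pairs (SE 0.143, 95% interval 1.01 to 1.57), which is 2.45-fold in odds (likelihood-ratio p = 5.31e-22, two-sided, n = 20040 units). Without covariates the log2 odds difference was 2.69. The window of a pair holds the starts of both its genes, while every other window is centred on the start of a single gene. How far this count of starts enters the difference was not tested.

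Base composition differed between pairs and other promoters. The median CpG observed/expected ratio was 0.774 at pairs and 0.529 at other promoters, and median GC content was 60.4% and 54.6%. Within classes of equal size by CpG ratio, numbered from 1 (lowest) to 10 over all units, pairs had a peak more often in each of classes 5 to 10. In class 9, 154 of 173 pairs had one (89%, 83.4 to 93.3), against 1247 of 1831 other promoters (68.1%, 65.9 to 70.2). In class 5 the counts were 21 of 35 pairs (60%, 42.1 to 76.1) and 595 of 1968 other promoters (30.2%). In class 10 the intervals were closest among these, at 68.7 to 83.4 for 105 of 137 pairs and 62.3 to 66.7 for 1204 of 1867 other promoters. Only 30 pairs fell in classes 1 to 4, and 2 of them had a peak (6.67%, 0.818 to 22.1), beside 4.12% of other promoters there. Pairs poor in CpG without a peak included Ifit1bl2/Ifit1 (interferon-induced genes, CpG ratio 0.118), Il11/Tmem190 (0.113), Slc27a5/Trim28 (0.155) and Rnf151/Rps2 (0.161). Pairs were also less repeat-masked, at a median of 4.90% of the window against 9.80%, and reads had been mapped to a masked genome. With the masked share as a further covariate the log2 odds difference was 1.28.

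**Figure D1:**
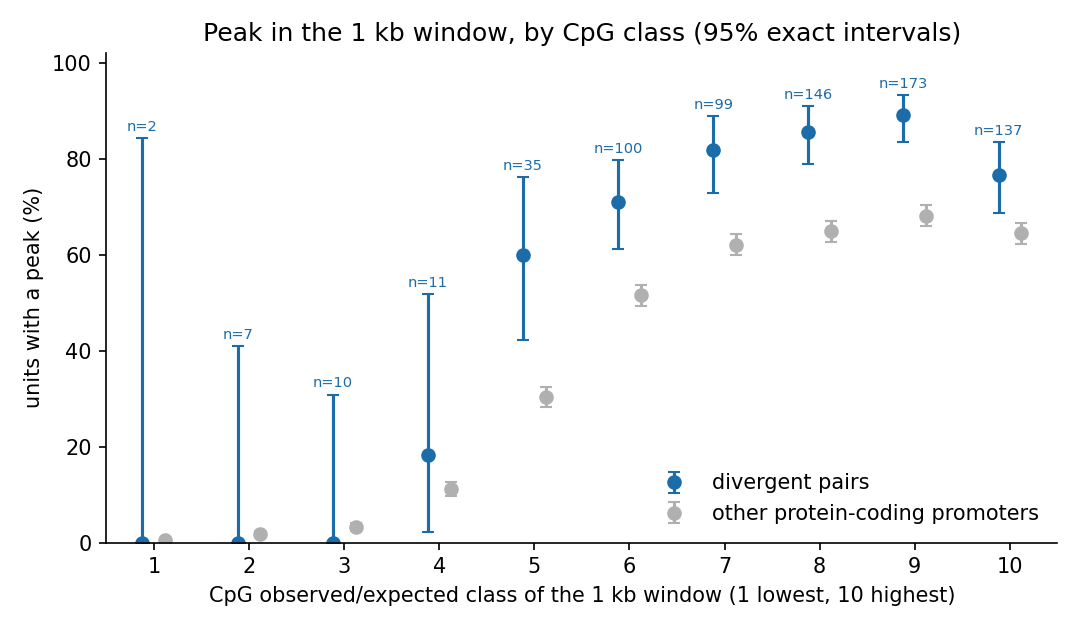
Share of units with a peak in the 1 kb window (vertical axis, percent) by class of CpG observed/expected ratio (horizontal axis), for divergent pairs (blue, number of pairs above) and other protein-coding promoters (grey), with exact 95% intervals. In classes 5 to 10 the pairs lie above the other promoters, at 60% against 30.2% in class 5 and 89% against 68.1% in class 9, and in classes 1 to 4 the pairs are too few to place.

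Other arrangements of starts had shares between these values. Of 671 other promoters with a noncoding gene starting divergently within 1 kb, 379 had a peak (56.5%, 52.6 to 60.3). Of 446 head-to-head pairs whose 5′ ends overlap, so that no interval lies between them and they are no pairs under the rule, 315 had a peak (70.6%, 66.2 to 74.8). Genes that also belong to a divergent pair were not removed from this class, so its peaks can be members too. Of the 17779 other promoters with neither, 32.6% had one. Some of the best-known divergent genes are of the overlapping kind in this annotation. Hspd1/Hspe1, the mitochondrial chaperonin and its co-chaperonin, had a peak of 618 bp, Ppat/Paics (purine synthesis) 2, the wider of 407 bp, and Rnaseh2a/Prdx2 one of 262 bp. The last of these peaks is also a member, at Gm49661/Prdx2. Surf1/Surf2, Psmb9/Tap1, Fen1/Tmem258 and Col4a1/Col4a2 had none. Base composition was not compared among these classes, and the differences between their shares were not tested.

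The distance between the starts was tied to the presence of a peak. The pairs ran from Bag4/Lsm1, whose 5′ ends are 1 bp apart and which had a peak of 357 bp, to Btf3l4/Txndc12, 987 bp apart, with 3 peaks of 245, 171 and 96 bp. The median distance was 125 bp, with quartiles of 65.75 and 235 bp. Of the pairs 1 to 50 bp apart, 89 of 125 had a member (71.2%, 62.4 to 78.9). The share was 75.7% at 51 to 100 bp, 78.2% at 101 to 200 bp and 84.1% at 201 to 300 bp, and 56 of 62 pairs had one at 301 to 500 bp (90.3%, 80.1 to 96.4). It was 76.6% (36 of 47) at 501 to 750 bp and 80% (16 of 20, 56.3 to 94.3) at 751 to 1000 bp, so the shares did not climb over the whole range. In a logistic regression over the 720 pairs with the same covariates and the fixed 1 kb window, the log2 odds of a peak were 0.49 higher per doubling of the distance (SE 0.105, 0.282 to 0.693, likelihood-ratio p = 2.09e-06, two-sided, n = 720 pairs). The value was 0.44 (p = 0.000214, n = 653) over pairs at most 500 bp apart and 0.19 (p = 0.0333, n = 720) without covariates. The fixed window has the same length for every pair, so the longer span of distant pairs did not enter this fit. Just outside the limit of the rule, 27 of 41 pairs 1001 to 1500 bp apart had a peak in the span drawn the same way (65.9%, 49.4 to 79.9), but 14 of 41 in the 1 kb around the midpoint (34.1%).

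**Figure D2:**
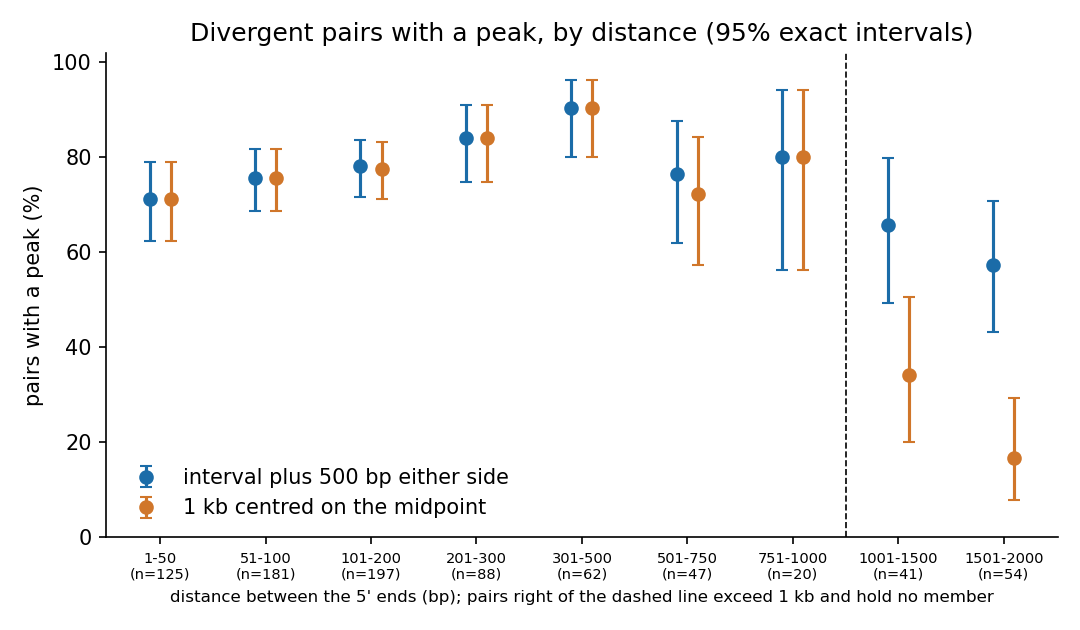
Share of divergent pairs with a peak (vertical axis, percent, with exact 95% intervals) by the distance between their 5′ ends in bp (horizontal axis, number of pairs in brackets), for the interval plus 500 bp either side (blue) and for the fixed 1 kb around the midpoint (orange). The share runs from 71.2% at 1 to 50 bp to 90.3% at 301 to 500 bp, and right of the dashed line, beyond 1 kb, the 2 windows part.

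The word between, used for these peaks, holds for some of them only. A member overlapped the interval itself in 482 of 669 cases (72.0%, 68.5 to 75.4), and its midpoint lay between the 5′ ends in 220 (32.9%, 29.3 to 36.6). The other midpoints lay on the side of the minus-strand gene in 213 cases and of the plus-strand gene in 236. In all, 241 members covered both 5′ ends (36%), 208 covered one of them (31.1%), 33 lay wholly between them (4.93%) and 187 lay wholly outside the interval (28.0%). The midpoint of a member was a median of 130 bp from the midpoint of its pair (quartiles 59 and 239.5 bp).

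Rpl9/Lias, a ribosomal protein gene and the lipoic acid synthase gene 53 bp apart, had 1 peak over both starts, at chr5:65391157-65391692. At Gart/Son, a purine synthesis gene and a splicing cofactor gene 554 bp apart, 1 peak of 418 bp covered the start of Gart and 2 of 133 and 146 bp lay inside Son. At Mrps12/Sars2 the peaks sat on either side of the printed interval, with 215 bp inside Mrps12 (chr7:28741602-28741816) and 242 bp inside Sars2 (chr7:28742040-28742281). At Brca1/Nbr1, a tumour suppressor of recombination repair beside an autophagy receptor, peaks of 156 and 164 bp each covered one start and together took in 92 of the 193 printed bases, and another peak of 466 bp lay inside Nbr1 (chr11:101552562-101553027). At Timm9/2700049A03Rik the only peak, of 480 bp, lay wholly beyond the plus-strand start.

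The placement varied with the distance, as the layout requires for peaks of like width. At 1 to 50 bp, 61 of 95 members covered both starts (64.2%), at 201 to 300 bp 22 of 86 did (25.6%), and at 751 to 1000 bp none of 22 did. The share with the midpoint between the starts went the other way, from 11.6% to 63.6%. Members wholly outside the interval made up 25.3% at 1 to 50 bp, 33.0% at 101 to 200 bp and 9.09% at 751 to 1000 bp.

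**Figure D3:**
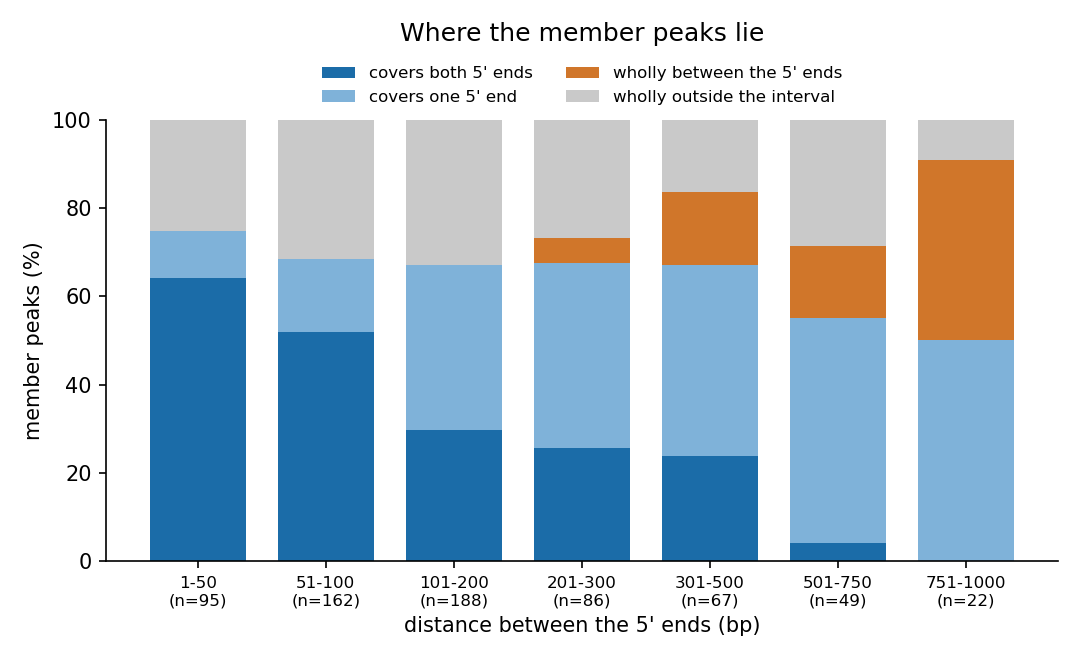
Member peaks (percent, stacked bars) by where they lie, for each range of distance between the 5′ ends in bp (number of members in brackets). Peaks over both starts (dark blue) make up 64.2% at 1 to 50 bp and 0% at 751 to 1000 bp, while peaks wholly between the starts (orange) reach 40.9% there.

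Of the 447 pairs with a single member, 223 had it over both starts (49.9%), 138 over one start (30.9%), 18 wholly between (4.03%) and 68 wholly outside the interval (15.2%). Of the 115 pairs with 2 or 3 members, 56 had midpoints in both genes (48.7%), as at Mrps12/Sars2, 2 of them with another between the starts. A further 45 had midpoints between the starts and in one gene (39.1%), as at Brca1/Nbr1 and Gart/Son. Midpoints lay in one gene alone at 12 pairs and between the starts alone at 2.

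Summed over pairs, coverage was highest at the midpoint, where 52.2% of the 720 pairs lay under a peak, and it was above 50% of that level over 500 bp, from -240 to 260 bp. At other promoters it was highest at the 5′ end itself, at 22.1%, with a width of 440 bp. Peaks at other promoters were centred on the 5′ end (median 0 bp, quartiles -113.5 and 120.25 bp, negative meaning upstream), and 49.98% of their midpoints lay upstream. For pairs, each peak in the 1 kb window was set against both starts, once for each pair whose window it met. The median distance of its midpoint was -78 bp, and 66.8% of the 1346 distances were upstream. For a pair, upstream of one gene includes the start of the other, so this shift follows in part from the layout.

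**Figure D4:**
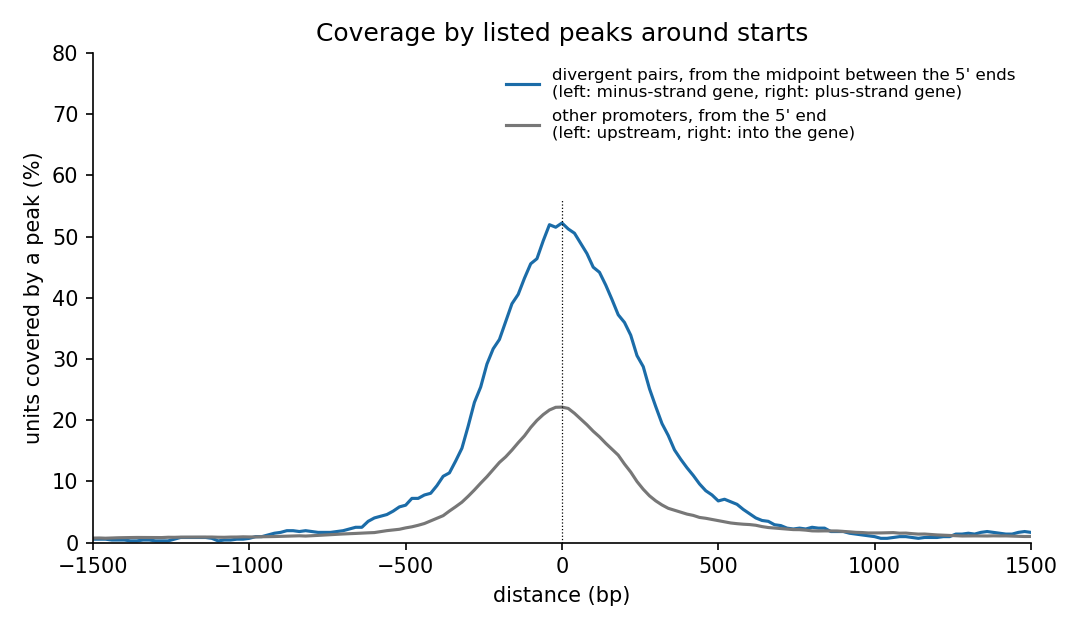
Share of units covered by a listed peak (vertical axis, percent) against distance in bp from the midpoint of divergent pairs (blue) and from the 5′ end of other promoters (grey). The blue line reaches 52.2% and the grey line 22.1%, both at 0 bp, and both come down to a few percent by 700 bp on either side.

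Member peaks were about as wide as peaks at other promoters. Their median width was 262 bp (quartiles 172 and 413, range 91 to 1927), against 258 bp (168 and 393) for 7109 peaks at other promoters and 223 bp for all autosomal peaks. Members over 500 bp made up 15.5% (12.9 to 18.5), against 13.5% (12.7 to 14.3). Taken by unit, the widest peak in the 1 kb window had a median of 302 bp at 559 pairs and 278 bp at 6745 other promoters, the summed width 345 and 298 bp, and 19% of pairs with a peak had 2 or more, against 10.9%. In a linear regression of log2 width with the same covariates, the widest peak was 1.08-fold wider at pairs (log2 ratio 0.11, SE 0.0333, 0.0407 to 0.171, p = 0.00147, two-sided, robust errors, n = 7304 units). The difference was 0.01 (p = 0.673, n = 4659 units) when peaks narrower than the list's median of 223 bp were left out. That cut is made on the fitted width itself, so it cannot test the difference over all widths.

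The 3 widest members lay at pairs that hold a gene of the splicing list, which has 20 of the 720 pairs. The widest of all, 1927 bp (chr15:103239187-103241113), covered both starts of Cbx5, which encodes the heterochromatin protein HP1 alpha, and Hnrnpa1, a splicing regulator, 616 bp apart. The next, 1646 bp (chr6:51469243-51470888), lay at the paralogous pair Hnrnpa2b1/Cbx3, the latter encoding HP1 gamma, with starts 466 bp apart. The human counterpart of that region is used in expression vectors as a ubiquitous chromatin opening element. Both windows were in the highest CpG class, with ratios of 0.981 and 1.03. Next came Ddx5/Cep95, an RNA helicase and a centrosomal protein gene, with 1195 bp (chr11:106788260-106789454), followed by Mrps18b/Ppp1r10 (a mitochondrial ribosomal protein and a regulator of protein phosphatase 1) with 1037 bp and S100pbp/Yars (the latter the tyrosyl-tRNA synthetase) with 999 bp. Cbx5/Hnrnpa1 and Hnrnpa2b1/Cbx3 are in the chromatin regulator list as well. The widest peak of splicing pairs had a median of 357 bp. Such medians of the gene lists ran from 232 bp (ribosome biogenesis) to 452 bp (cytosolic ribosome), so wide peaks are not particular to splicing pairs.

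Of the cell cycle list, which has 27 of the 720 pairs, Cdca2/Kctd9, Usp5/Cdca3 and Cenpp/Nol8 were also among the 20 widest. Cdca2/Kctd9 had 978 bp, Cdca2 directing a phosphatase to chromosomes at mitotic exit. Usp5/Cdca3 had 843 bp with a further 233 bp, and Cenpp/Nol8, a kinetochore protein and a nucleolar protein gene, 795 bp. The other pairs of the 20 are not in that list. Rbbp4/Zbtb8os had 976 bp, Rbbp4 being a histone-binding subunit of several chromatin complexes. Hjurp/Trpm8 had 875 bp. Hjurp loads the centromeric histone CENP-A, and Trpm8, a cold-sensing channel of sensory neurons, starts only 28 bp away. Cks1b/Shc1, with a subunit of cyclin-dependent kinases, had 839 bp with a further 243 bp. Others among the widest were Aasdhppt/Kbtbd3 (963 bp), 1700028J19Rik/2410002F23Rik (915), Pusl1/Acap3 (869), Ppcs/Zmynd12 (844), Zfp91/Lpxn (805), Rnf5/Agpat1 (778) and Polr3g/Mblac2 (761). The rule by which replicates were merged into these widths is not given in the sources used here.

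Gene lists were then described by their counts. They were drawn up with earlier results of these data known, so the counts describe the lists and were not tested. They are read beside the 78.1% of all pairs. Of 27 lists, 22 had at least 5 genes in pairs. In 17 of these a larger share of the pair genes than of the list's other genes had a peak in the 1 kb window, in 4 a smaller share, and in 1 the shares were equal. Over all units these shares were 77.6% of pairs and 34.9% of other promoters, so such a direction is not particular to the lists. A gene in a pair was scored on the window of its pair, which also holds its partner's start, so the partner can supply the peak. In the list counts below, pairs are scored by a member in their span, which is longer than 1 kb. The other genes of a list are scored by a peak in their own 1 kb window. Such counts therefore differ in unit and in length.

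**Figure D5:**
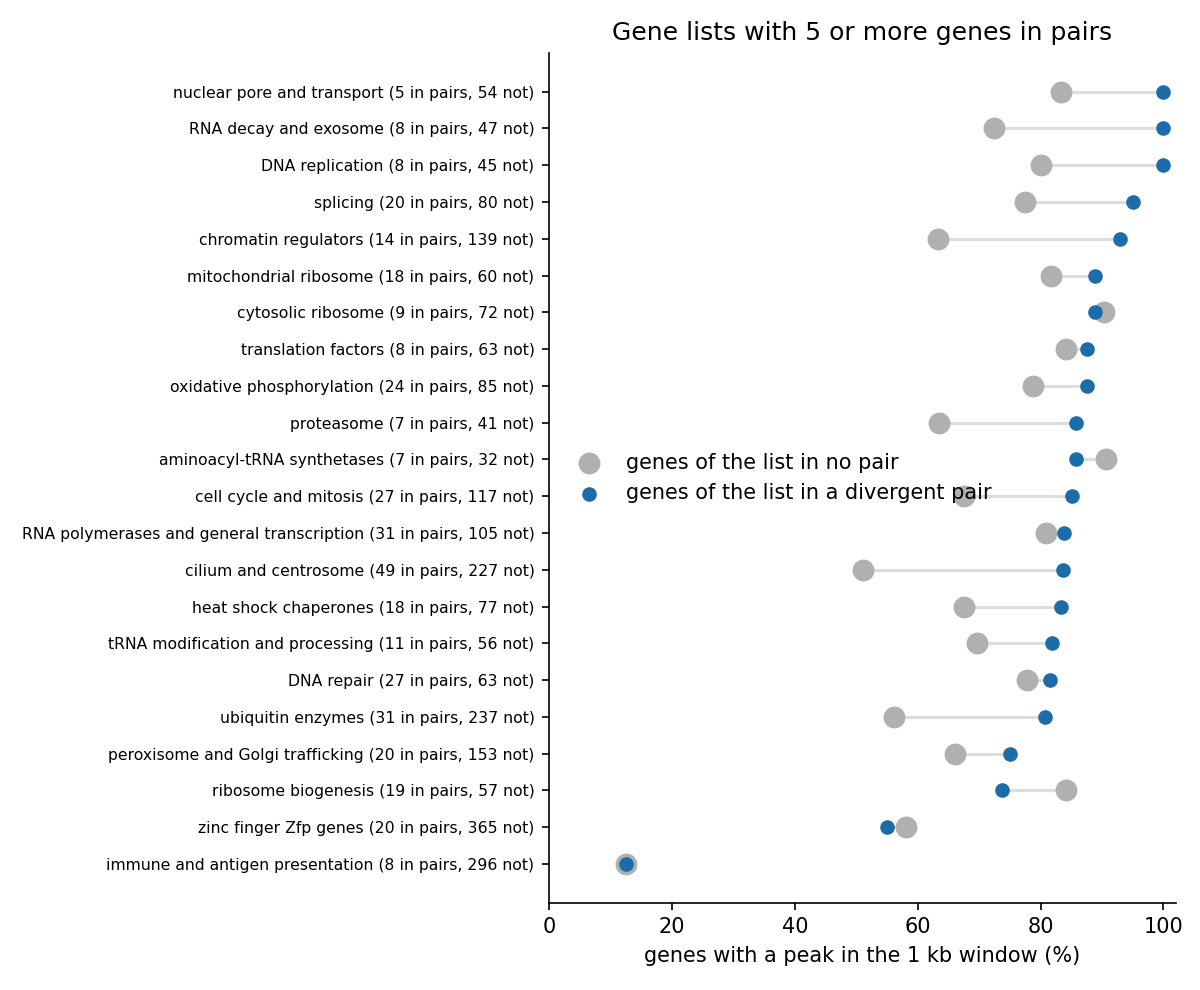
Share of genes with a peak in the 1 kb window (horizontal axis, percent) for the 22 gene lists with 5 or more genes in pairs (vertical axis, numbers of genes in brackets), for genes in a divergent pair (blue) and genes of the same list in none (grey). Blue lies right of grey in 17 lists, most widely for the cilium and centrosome list at 83.7% against 51.1%, and left of it in 4, among them ribosome biogenesis at 73.7% against 84.2%. Blue genes are scored on the window of their pair, which also holds the partner's start. The cilium and centrosome list takes in genes named Ccdc and Ttc.

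Of 19 genes for components of PML bodies, 2 are in divergent pairs and both pairs had a peak. Mrpl40/Hira, Hira being a chaperone of histone H3.3, had 587 bp (chr16:18876323-18876909) over the start of Mrpl40, and Wrap53/Trp53, Trp53 encoding p53 and Wrap53 a telomerase and Cajal body protein, had 221 bp (chr11:69580316-69580536) over the start of Trp53. Of the other 17 genes of this list, 13 had a peak. None of the 23 core pluripotency genes is in a divergent pair.

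Among genome maintenance genes, all 8 replication pairs had a peak, beside 36 of 45 other replication genes. They included Dbf4/Slc25a40 (670 and 113 bp), Dbf4 being the activator of the CDC7 kinase, Orc3/Rars2 (465 bp), with a subunit of the origin recognition complex, and Trmt6/Mcm8 (419 bp). Of 27 DNA repair pairs, 22 had one, beside 49 of 63 other repair genes. They included Rpa1/Smyd4 (605 bp), with the large subunit of the single-strand binding protein RPA, Tsc2/Nthl1 (573 bp) and Toe1/Mutyh (572 and 155 bp), the latter partners being glycosylases of base excision repair. Lig4/Abhd13, Hscb/Chek2 and Cenpj/Parp4 were among the 5 without. Lig4, the ligase of end joining, lies in the highest CpG class (ratio 0.890), in which 105 of 137 pairs had a peak. Of 27 cell cycle pairs 23 had a peak, beside 79 of 117 other genes of the list. Smc1b/Ribc2, with a meiotic cohesin subunit, and Vps26b/Ncapd3, with a condensin subunit, had none.

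The lists of RNA processing, nuclear transport, transcription and chromatin genes are likewise read beside the 78.1% of all pairs with a peak. Of 20 splicing pairs 19 had a peak, beside 62 of 80 other splicing genes, the exception being Dhx38/Txnl4b, with a splicing helicase. Cdc26/Prpf4 had 578 bp. All 8 pairs with RNA decay or exosome genes had one, beside 34 of 47 other genes, with Zdhhc3/Exosc7 at 566 bp and Xpc/Lsm3 at 390 bp. All 5 nuclear pore and transport pairs had one, beside 45 of 54 other genes, from Nup98/Pgap2 at 364 bp to Nup88/Rpain at 144 bp. Of 31 pairs with RNA polymerase or general transcription genes 26 had one, beside 85 of 105 other genes. Among them was Med29/Paf1 (585 bp), which joins a Mediator subunit to a subunit of an elongation complex. Noa1/Polr2b, with the second-largest subunit of RNA polymerase II, had none. Of 14 chromatin regulator pairs 13 had one, beside 88 of 139 other genes of the list. The exception was Slc27a5/Trim28, whose midpoint lies in a window poor in CpG and whose starts are 922 bp apart. Trim28 is the corepressor of KRAB zinc finger proteins.

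In translation and mitochondria, 8 of 9 pairs with cytosolic ribosomal protein genes had a peak, beside 65 of 72 other such genes. Rps28/Ndufa7, a ribosomal protein and a subunit of respiratory complex I only 10 bp apart, had 669 bp. Rnf151/Rps2 had none. Of 18 mitochondrial ribosome pairs 16 had one, beside 49 of 60 other genes. Of 24 oxidative phosphorylation pairs 21 had one, beside 67 of 85 other genes, including Ndufa4/Phf14 (664 bp) and Sdha/Ccdc127 (640 bp). Translation factors had one at 7 of 8 pairs, beside 53 of 63 other genes, with Abce1/Anapc10 at 575 bp. The list of tRNA synthetases had 6 of 7, beside 29 of 32 other genes, among them S100pbp/Yars and Orc3/Rars2, described above. Pairs with tRNA modification genes had 9 of 11, beside 39 of 56 other genes. Ribosome biogenesis had 14 of 20, beside 48 of 57 other genes of the list, and 2 of the 6 pairs without are the twin records of Chtf8/Utp4. Mitochondrial import had 2 of 4, beside 28 of 31 other genes of the list, with Timm23/Parg and Tomm6/Frs3 at none.

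In protein quality control, 15 of 17 chaperone pairs had a peak, beside 52 of 77 other genes of the list. Hsp90b1/Ttc41, with the HSP90 of the endoplasmic reticulum, had 645 and 394 bp, and Bop1/Hsf1, with the main heat shock transcription factor, 602 bp. Lrrc42/Hspb11 (680 bp) is in this list by its symbol, although Hspb11 encodes a protein of intraflagellar transport. Proteasome pairs had 6 of 7, beside 26 of 41 other genes, with Psmb1/Tbp at 310 bp. Ubiquitin enzyme pairs had 26 of 32, beside 133 of 237 other genes. Pairs with genes of the cilium and centrosome list, which has the most pairs, had 41 of 49, beside 116 of 227 other genes of the list. That list takes in genes named Ccdc and Ttc, as at Sdha/Ccdc127, Ccdc115/Imp4 and Hsp90b1/Ttc41. Such a name alone does not place a gene at the cilium or centrosome. Trafficking pairs had 15 of 20, beside 101 of 153 other genes, with Sec24a/Sar1b, both of the COPII coat, at 455 bp.

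Apart from mitochondrial import, the lowest shares of pairs with a peak were those of the lists of zinc finger, developmental, extracellular matrix (0 of 1, beside 13 of 64 other genes) and immune genes. Of 18 pairs with Zfp genes 11 had a peak, beside 212 of 365 other Zfp genes. Of 3 pairs with developmental transcription factor genes 1 had a peak, beside 60 of 191 other genes of the list. It was Foxa3/Sympk at 235 bp, and that peak covers the start of Sympk, a polyadenylation factor gene expressed in most cells. Sox6/1110004F10Rik and Rhno1/Foxm1 had none. Of 7 pairs with immune genes 1 had a peak, Cd3eap/Ppp1r13l at 295 bp, and Cd3eap, despite its symbol, encodes a subunit of RNA polymerase I. H2-T22/Gm6034, Ifit1bl2/Ifit1 and Il11/Tmem190 had none. The share among immune genes in pairs, 12.5%, equalled that among the 296 outside pairs.

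The 158 pairs without a member were not only those poor in CpG. Their median CpG ratio was 0.705 (quartiles 0.537 and 0.867), against 0.785 (0.697 and 0.862) at pairs with one, and the upper quartiles nearly met. Median GC content was 59.3% and 60.7%. Bag5/Apopt1, with starts 4 bp apart and a CpG ratio of 1.11, Gm27021/Cox4i1 (1.02), Psma7/Ss18l1 (0.978) and Noa1/Polr2b (0.967) are CpG-rich pairs without a listed peak. Of 74 pairs that include a predicted gene, 52 had a member (70.3%, 58.5 to 80.3). By chromosome the share ran from 64.5% of 31 pairs on chromosome 12 to 89.4% of 47 on chromosome 4, with intervals that overlap (45.4 to 80.8 and 76.9 to 96.5).

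The 13 motifs were searched as exact letters on both strands in the 300 bp around the midpoint of each pair and around each other 5′ end. They were the CCAAT box (CCAAT), the ETS core (CCGGAAG), the GC box (GGGCGG), the NRF1 core (CGCATGCG), the YY1 core (AAGATGGCG), the cAMP response element (TGACGTCA), the E box (CACGTG), the BANP element (TCTCGCGA), the ZNF143 core (ACTACAATT), the E2F core (TTTCCCGC), the TATA box (TATAAA), the octamer (ATGCAAAT) and the heat shock element (TTCNNGAA). Matches of different motifs may overlap, as the ETS core and the heat shock element do at Trmt6/Mcm8 and the GC box and the E2F core do at Mrps12/Sars2. A match is a run of letters and not a shown binding site.

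All pairs held several of these more often than promoters at large. The ETS core was in 28.9% of the 720 pairs and in 11.3% of all 20040 promoter windows, the GC box in 68.9% and 45.5%, and the CCAAT box in 43.5% and 35.9%. The BANP element was in 5.14% and 1.24%, the NRF1 core in 5.28% and 2.15%, the YY1 core in 5.56% and 2.15%, the E2F core in 3.33% and 1.31%, the cAMP response element in 4.44% and 2.24%, and the ZNF143 core in 0.833% and 0.434%. The E box was in 11.1% and 7.36%, and the heat shock element in 9.17% and 7.24%. The TATA box was in 3.19% of pairs and 10.9% of all windows, and the octamer in 0.694% and 1.22%. The window of a pair mostly takes in both of its starts, while every other window is centred on the start of a single gene. How far this layout enters the shares was not tested. These shares were not adjusted for base composition, and they describe the pairs whether or not a peak was there. Among peaks the shares lay closer together. Member peaks held the GC box in 67.7%, the E box in 9.27% and the cAMP response element in 2.54%. Peaks at other promoters held them in 69.2%, 10.2% and 2.88%. The ETS core was in 25.7% of members and 19.7% of those peaks, the CCAAT box in 38.3% and 34.6%, and the BANP element in 3.74% and 2.50%. These differences were not tested.

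Between pairs with and without a peak no motif passed the test. Pairs with a peak held the CCAAT box in 45.9% (41.7 to 50.1) and pairs without in 34.8%, the ETS core in 30.8% and 22.2%, the heat shock element in 10.3% and 5.06%, and the cAMP response element in 3.91% and 6.33%. In logistic regressions of peak presence on each motif, with GC content, CpG ratio and their squares in the same 300 bp, 0 of 11 motifs had a Benjamini-Hochberg adjusted p below 0.05 (0% called), and 0 had an unadjusted p below 0.05. The smallest unadjusted values were 0.0549 for the cAMP response element (log2 odds -1.18, SE 0.587), 0.0640 for the heat shock element (1.06, SE 0.613) and 0.0837 for the CCAAT box (0.50, SE 0.288), each with an adjusted p of 0.306. The ZNF143 core and the octamer were in fewer than 10 pairs each and were not fitted. A miss of the threshold does not show that the motif is unrelated to the peak, since most of the 11 motifs were in few pairs, such as 32 for the cAMP response element and 38 for the NRF1 core.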

How the data were processed

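ALaP-seq was done on 4 samples of E14 mouse embryonic stem cells, 2 with and 2 without hydrogen peroxide. Per the labels' protocols, libraries were made with a transposase-based Nextera kit and selected for size. Per the submitters' processing notes, the tools were Trimmomatic, Bowtie2 2.3.5.1 and bedtools and the build was mm10. Per the series' design text, the genome was repeat-masked and blacklisted and greylisted regions were removed. The deposited list gives start and end positions of merged peaks, made by the authors, and no other value. The peak caller with its threshold, the merging rule and the part played by the controls were not given in the sources used here. Signal tracks were not analysed here. The depth of each sample is unknown.

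From this list, peaks were joined to GENCODE M21 gene models, taking the 5′ end of each model, and to the GRCm38 sequence. Peaks overlapping by at least 1 bp counted as hits, and 0 peaks ran past a chromosome end. Intervals of shares are exact Clopper-Pearson ones at 95% and cover counting error alone. Logistic and linear regressions were fitted with statsmodels 0.14.6 under Python 3.11.15, with numpy 2.4.6 and scipy 1.17.1, over all units, two-sided, and were tested on simulated data with known effects. Members and gene lists were chosen with earlier results of these data known. The text names the 20 pairs with the widest members, up to 4 pairs with the widest member and up to 3 without a member per list, a list of textbook divergent pairs, pairs that share peaks, and the 3 pairs with the longest intervals that had a peak, all or in part; a few of them are not reported here. CpG-rich pairs without a peak and those cited for position were taken from these after their values were seen. Printed intervals were 40 to 300 bp long, at most 10, taking those with the most motifs first. Alternatives changed the start site, distance, flank, window, peak width, overlap, genes and covariates.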

Additional observations from a re-analysis of the deposited data

How the results depend on the processing

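The share of pairs with a peak was 66.25% when a peak had to touch the interval itself and 55.4% when peaks narrower than 223 bp, the median of the list, were left out, which also left 406 members. With these wider peaks the width difference between pairs and other promoters was no longer past the threshold (log2 ratio 0.0122, SE 0.0289, p = 0.673, n = 4659 units). Here peaks were left out by the width that is fitted, so this fit cannot test the difference found over all widths. For the presence of a peak at pairs the log2 odds difference stayed between 0.938 and 2.69 over 10 alternatives, and for the distance between starts the value per doubling stayed between 0.193 and 0.499 over 5, all on the same side of the threshold. Of the motif values, none of which passed the test, the CCAAT box turned to -0.134 and the heat shock element to -0.186 with the wider peaks, and the YY1 core to 0.179 without covariates and 0.130 with a window of 600 bp. The cause of these turns was not tested. The masked share, the CpG classes as covariates, other promoters without divergent noncoding or overlapping genes, loci in place of pairs, and pairs at most 500 bp apart for the distance fit were chosen after seeing the data. No paired analysis was possible because the list holds no value per sample, and leaving out a replicate was not run for the same reason. Depth limits what the absence of a listed peak means, and it is unknown here.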

Other observations

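Further peaks in the neighbourhood, 1.5 to 10 kb from the midpoint or 5′ end, were counted for pairs and for other promoters. Of 559 pairs with a peak in their 1 kb window, 127 had another peak at that distance (22.7%, exact 95% interval 19.3 to 26.4), against 2216 of 6745 other promoters with a peak (32.9%, 31.7 to 34). Of 161 pairs without a peak in the window, 46 had one nearby (28.6%, 21.7 to 36.2), against 2314 of 12575 other promoters without (18.4%, 17.7 to 19.1). The intervals of the 2 groups of pairs overlap, and those of the 2 groups of other promoters do not. The difference between pairs and other promoters was not tested.

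Some peaks lie at 3 genes that start close together. One peak of 329 bp lies at Mrto4, Emc1 and Ubr4, with Mrto4, a ribosome assembly factor, facing both of the others at 11 and 33 bp. At Pms1/Ormdl1, with a mismatch repair gene, 2 peaks of 204 and 198 bp are shared with the predicted gene Gm28778. At Rfxank/Borcs8 and Rfxank/Mef2b, 345 and 557 bp apart, 2 peaks of 220 and 114 bp are shared. Asphd1/Sez6l2, 981 bp apart, had a single peak of 173 bp, which lay wholly between the starts.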
